A study of Mus musculus with 18 samples.

Results

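The 39 genes described here are the mouse TNF ligands and TNF receptors that the symbols of 23284 genes name as such. Gene symbols that begin with Tnfsf or Tnfrsf and a number gave 31 of them, and Fasl, Cd40, Cd40lg, Cd27, Cd70, Lta, Ltb and Ltbr were added by name. Of the 39 genes 16 encode ligands and 23 encode receptors or decoy receptors. Tnf itself, Fas and 5 further relatives carry other symbols, fall outside this rule, and are given with the signaling genes at the end.

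RNA was measured in GL261 glioma, B16F10 melanoma and Lewis lung carcinoma (LLC) tumors grown under the skin of male mice aged 12 weeks, treated with the alkylating drug cyclophosphamide (CPA) or left untreated. CPA was given at 140 mg/kg, every 6 days (CPA/6d) in all models and also every 9 days (CPA/9d) to GL261 tumors in scid mice, and tumors were collected 6 days after the last injection. That was the 2nd injection for GL261 and the 3rd for B16F10 and LLC, so the number of injections and the tumor model cannot be told apart. The 9 groups are GL261(B6) CPA/6d, GL261(B6) untreated, GL261(scid) CPA/9d, GL261(scid) CPA/6d, GL261(scid) untreated, B16F10 CPA/6d, B16F10 untreated, LLC CPA/6d and LLC untreated. GL261(B6), B16F10 and LLC tumors grew in C57BL/6 mice, in which these lines are syngeneic, and GL261(scid) tumors in ICR scid mice, which lack functional T and B cells but keep natural killer and myeloid cells. Each group was 2 pools of 3 to 12 tumors and each pool gave 1 library. Host and library kit were changed together, since GL261(scid) RNA went through a different preparation. The hosts are therefore tested against each other only by their responses to CPA. Each tumor model is a single cell line.

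TNF ligands are mostly trimeric membrane proteins of immune cells, and their receptors signal through TRAF adaptors to NF-κB or, where they hold a death domain, to caspases. One branch of the family costimulates T cells after antigen recognition, another keeps B cells alive, and FasL and TRAIL kill target cells. Lymphotoxins shape lymphoid tissue, and RANKL and its soluble decoy osteoprotegerin set the pace of osteoclast formation. In tumors these genes are expressed by infiltrating leukocytes, stroma and the tumor cells themselves, and in bulk RNA fewer cells of a type cannot be told apart from less RNA per cell.

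Levels are normalized reads per 10000000 reads mapped to genes, given for both pools of a group, the deeper pool first. The pools held 6169217 to 15979644 reads. By counting error only, a count of 0 in a pool allows up to 3 reads. In the shallower pool of each group that is 2.64 to 4.86 reads per 10000000, before scaling between libraries. A gene was called where limma gave p under 0.001 before adjustment and the fold change passed 2, and adjusted p (Benjamini-Hochberg) are over all genes tested in a comparison. With 2 pools a group, the spread is that between pools of tumors. As a check of the labels, 5 melanocyte genes summed to 204450.0 to 224850.0 normalized reads in untreated B16F10 and 74.3 to 204 in untreated LLC, and 5 glial genes to 13330.0 to 13441 in untreated GL261(B6) and 2.05 to 2.84 in untreated LLC. The epithelial keratin gene Krt8 was at 2894 and 2667 in untreated LLC, but the lung marker Sftpc had no read there. Krt8 was at 12864 and 12079 in untreated GL261(scid) and 1046 and 1562 in untreated GL261(B6) pools, a difference in which host and kit cannot be told apart.

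In GL261(B6) tumors CPA/6d raised 22 of the 39 genes, and no member was called lower. That is 64.7% of the 34 members with enough reads to be tested, against a background of 17.6% of all tested genes called higher and 6.49% called lower. The median log2 fold change was 1.86 over the tested members and -0.02 over all tested genes. Of the called members, 10 are ligands and 12 receptors, and 6 of them (Cd27, Lta, Tnfsf11, Tnfsf14, Tnfsf15 and Tnfsf8) reached the read minimum of the test in the treated but not in both untreated pools. At an unadjusted p under 0.05, 29 members (85.3% of those tested) were higher and 1 was lower, against 35.9% and 36.9% of all tested genes. Without either CPA/6d pool 16 members were called, and the other 6 then had too few reads to be tested. In a fit over all 12 libraries of this kit, Cd27, Ltb, Tnfrsf11b, Tnfsf11, Tnfrsf4, Tnfrsf18 and Tnfsf13b lost the call and 15 members were called.

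**Figure D1:**
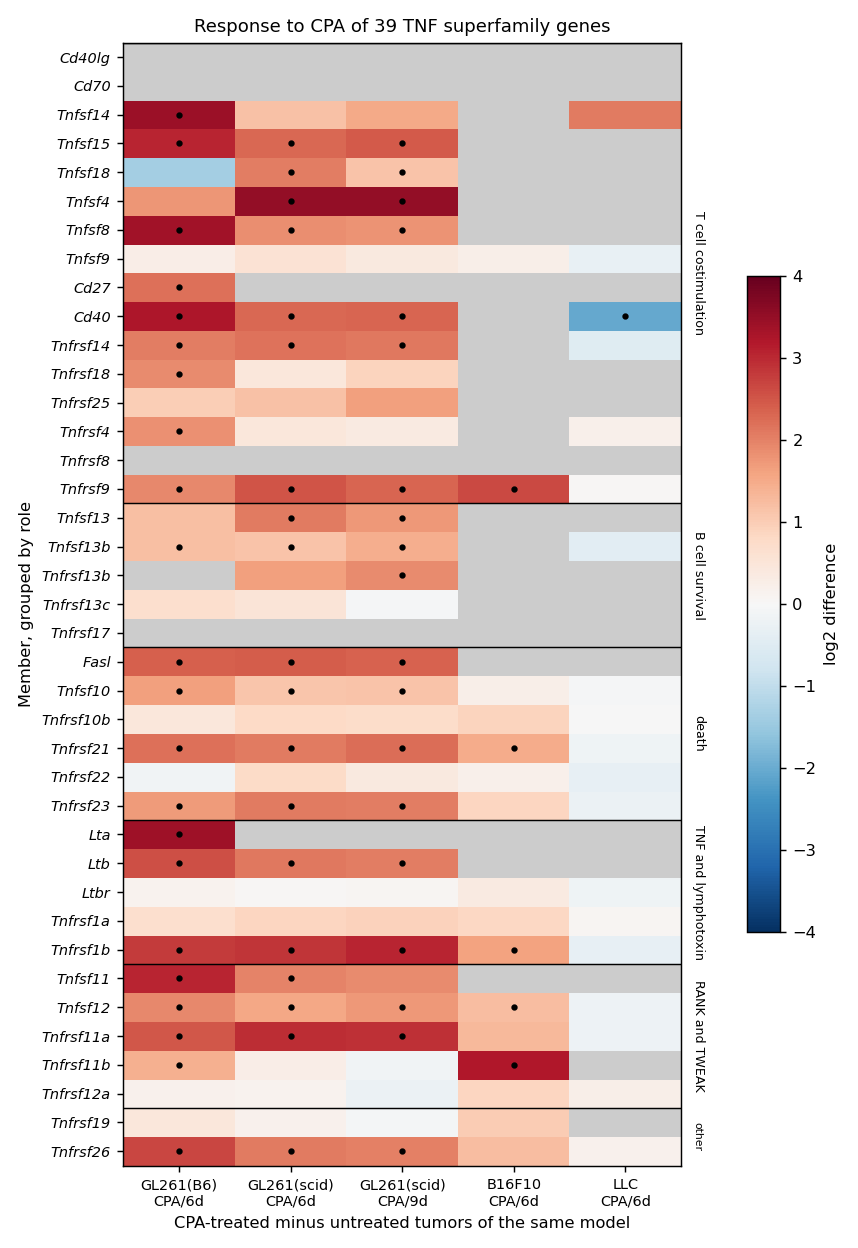
Heat map of the log2 difference (color) between CPA-treated and untreated tumors for 39 members (rows, by role) in 5 comparisons (columns). Black dots mark called members and grey cells members with too few reads to be tested. The 3 GL261 columns are mostly red with 22, 19 and 19 dots from left to right, the B16F10 column has 5 dots and the LLC column 1 dot, for Cd40, in blue.

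The costimulatory genes were the largest branch, with 9 of 16 called in GL261(B6) tumors. Cd40, the receptor through which T cells license dendritic cells, macrophages and B cells (chr2:164881127-164898448, mm9), was at 326 and 385 in CPA/6d pools and 40.7 and 33.0 in untreated pools, a log2 fold change of 3.24 (SE 0.17, adjusted p = 8.4e-09 by limma). Its ligand gene Cd40lg, made by activated helper T cells, gave only 11 and 10 reads in CPA/6d pools and 2 and 3 in untreated pools, too few for the test. The groups did not overlap. Over all 39 members both CPA/6d pools were above both untreated pools for 35 and below for 1, and the groups overlapped for 3, tested or not, where 38.9% and 35.1% of the 18384 genes with a read in these libraries had both pools above and both below.

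Tnfsf14, which encodes LIGHT, was at 53.5 and 40.0 in CPA/6d and 2.54 and 4.50 in untreated pools, a log2 fold change of 3.42 (SE 0.44, adjusted p = 1.96e-05 by limma). Its receptor gene Tnfrsf14, for HVEM, was at 245 and 299.9 in CPA/6d and 67.4 and 61.5 in untreated pools, a log2 fold change of 2.06 (SE 0.16, adjusted p = 2.36e-07 by limma). LIGHT was thus near the detection floor without the drug, while HVEM was already well detected.

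Tnfsf8, for the CD30 ligand, was at 78.9 and 80.0 in CPA/6d and 7.63 and 6.00 in untreated pools, a log2 fold change of 3.37 (SE 0.32, adjusted p = 1.51e-06 by limma). The gene of its receptor CD30, Tnfrsf8, held 11 and 4 reads in CPA/6d and 2 and 1 in untreated pools, a ratio of 3.9 with an exact binomial interval of 1.1 to 21. Tnfsf15, for TL1A, was at 41.3 and 41.2 in CPA/6d and 3.81 and 4.50 in untreated pools, a log2 fold change of 3.04 (SE 0.41, adjusted p = 2.9e-05 by limma). The TL1A receptor gene Tnfrsf25 (DR3) was not called, with 23.5 and 16.2 in CPA/6d and 11.4 and 7.50 in untreated pools. In both pairs the ligand gene was called higher. The receptor genes had few reads and neither was called, though both CPA/6d pools were above both untreated pools.

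4 further receptors of T cell costimulation rose. Cd27, a receptor of resting T cells and natural killer cells (chr6:125182640-125187028, mm9), was at 47.0 and 48.7 in CPA/6d and 8.90 and 10.5 in untreated pools, a log2 fold change of 2.19 (SE 0.33, adjusted p = 8.4e-05 by limma), while Cd70, its ligand gene, held 4 reads in CPA/6d and 1 read in untreated pools. Tnfrsf9 (4-1BB), Tnfrsf18 (GITR) and Tnfrsf4 (OX40), receptors induced on activated T cells, had log2 fold changes of 1.93, 1.90 and 1.83. Tnfrsf9 was at 357 and 359 in CPA/6d pools and 83.9 and 104 in untreated pools. The ligand genes of 4-1BB and OX40 were not called. Tnfsf9 (4-1BB ligand) was at 74.2 and 75.0 in CPA/6d and 64.8 and 60.0 in untreated pools. Tnfsf4 (OX40 ligand) was at 17.8 and 25.0 in CPA/6d and 5.09 and 6.00 in untreated pools, without overlap, from 19 and 20 reads in CPA/6d and 4 and 4 reads in untreated pools, a log2 fold change of 1.76 (SE 0.46, adjusted p = 0.00425 by limma), so that it missed the threshold at a fold near that of its receptor gene.

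Tnfsf18, the GITR ligand gene, stood apart from its family in GL261(B6) tumors. It was at 9.39 and 15 in CPA/6d and 25.4 and 40.5 in untreated pools, a log2 fold change of -1.36 (SE 0.39, adjusted p = 0.00798 by limma), so that it missed the unadjusted p threshold. It was the only tested member besides Tnfrsf22 with a negative log2 fold change in this comparison.

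Beside these genes the T cell markers Cd3d, Cd3e, Cd3g, Cd4, Cd8a and Cd8b1 summed to 2009.6 to 2427 in CPA/6d and 287 to 315 in untreated GL261(B6) pools, with all 6 called higher. The 4 natural killer markers summed to 533 to 599 in CPA/6d and 70.5 to 77.5 in untreated pools, also all called higher, and the 5 macrophage markers to 18342 to 20308 in CPA/6d and 2921 to 3219 in untreated pools, with 4 called. The 5 dendritic cell markers summed to 4299 to 4812 in CPA/6d and 566 to 578 in untreated pools, with all 5 called higher, and the glial markers to 4189 to 4559 in CPA/6d and 13330.0 to 13441 in untreated pools, with 4 of 5 called lower. The 4 neutrophil markers found in the files summed to 1236 to 2003 in CPA/6d and 12.0 to 12.7 in untreated pools, with all 4 called higher, and the 5 fibroblast markers to 79096 to 83462 in CPA/6d and 24996 to 28385 in untreated pools, with 4 called higher. The 4 endothelial markers summed to 1624 to 1815 in CPA/6d and 1185 to 1196 in untreated pools, and none was called. The part of these shifts in the changes of the members was not tested.

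The promoter of Tnfrsf9 is shown because the gene rose in GL261 tumors of both hosts and in B16F10 and its window holds the NF-κB consensus, the site of the factor that many TNF receptors activate. It is 300 bases long, 250 before and 50 after the RefSeq start (chr4:150927749-150928048, plus strand, GRCm38.p6), with overlapping matches in capitals.
Tnfrsf9: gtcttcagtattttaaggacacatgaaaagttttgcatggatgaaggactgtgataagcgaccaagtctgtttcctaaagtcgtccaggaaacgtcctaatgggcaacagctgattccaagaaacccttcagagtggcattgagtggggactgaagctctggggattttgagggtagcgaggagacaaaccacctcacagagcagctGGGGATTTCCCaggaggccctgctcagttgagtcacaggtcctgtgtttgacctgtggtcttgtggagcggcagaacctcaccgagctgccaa
RefSeq promoters were given for 29 of the 39 members, 33 windows in all. The 10-letter NF-κB consensus, searched on both strands, matched in 3 of the 33 windows, those of Tnfrsf9, Ltb and Tnfrsf8, against 4.51% of 32851 windows of all genes. It was present in 2 of 18 members called in GL261(B6) tumors and in 1 of 11 not called there. A match describes these letters only and is not a measured site.

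Among the genes of B cell survival only Tnfsf13b (BAFF), a survival factor secreted by myeloid cells, was called in GL261(B6) tumors. It was at 219.8 and 206 in CPA/6d and 90.3 and 94.5 in untreated pools, a log2 fold change of 1.196 (SE 0.14, adjusted p = 1.19e-05 by limma). Its main receptor gene Tnfrsf13c (BAFF receptor) was not called, with 129 and 127 in CPA/6d and 82.6 and 76.5 in untreated pools. Tnfsf13 (APRIL) was at 19.7 and 23.7 in CPA/6d and 10.2 and 7.50 in untreated pools, again without a call. The receptor genes Tnfrsf13b (TACI) and Tnfrsf17 (BCMA, of plasma cells) were below the read minimum: Tnfrsf13b held 28 reads in CPA/6d and 3 reads in untreated pools, a ratio of 7.27 with an exact binomial interval of 2.25 to 37.4, and Tnfrsf17 held 4 reads and 0 reads.

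Of 6 genes of death ligands, death receptors and decoy receptors for TRAIL, 4 rose, among them the decoy gene Tnfrsf23. Fasl, the Fas ligand of cytotoxic T and natural killer cells (chr1:163710820-163718626, mm9), was at 74.2 and 88.7 in CPA/6d and 12.7 and 16.5 in untreated pools, a log2 fold change of 2.41 (SE 0.28, adjusted p = 9.43e-06 by limma). Tnfsf10 (TRAIL) was at 574 and 591 in CPA/6d and 203 and 169.6 in untreated pools, with a log2 fold change of 1.64. Its signaling receptor gene Tnfrsf10b was not called, at 155 and 161 in CPA/6d and 114 and 116 in untreated pools.

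Tnfrsf23, a mouse decoy receptor for TRAIL without a death domain, rose to 170.0 and 157 in CPA/6d pools, against 44.5 and 54.0 in untreated pools, a log2 fold change of 1.72. The second decoy gene, Tnfrsf22, was not called, at 19.7 and 28.7 in CPA/6d and 21.6 and 31.5 in untreated pools. Both lie side by side on chromosome 7 and share 719 stretches of 50 bases, 21.5% of those of Tnfrsf23 and 17.1% of those of Tnfrsf22, so part of their reads may be split between them. Tnfrsf21, the death receptor DR6, was at 410.4 and 455 in CPA/6d and 82.6 and 107 in untreated pools, a log2 fold change of 2.19 (SE 0.14, adjusted p = 5.53e-08 by limma).

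In the TNF and lymphotoxin branch Tnfrsf1b, the TNF receptor of leukocytes and endothelium (chr4:144803366-144836773, mm9), gave the highest level of any member per kilobase of exon in treated GL261(B6) tumors. It was at 2269.8 and 2711 in CPA/6d and 341 and 372 in untreated pools, a log2 fold change of 2.80 (SE 0.09, adjusted p = 1.16e-10 by limma). Tnfrsf1a, the TNF receptor of nearly all cells, was at 1469 and 1504 in CPA/6d and 899 and 969 in untreated pools, a log2 fold change of 0.67 (SE 0.07, adjusted p = 3.74e-06 by limma), a difference past the p threshold but under the fold. Per kilobase Tnfrsf1b was at 652 and Tnfrsf1a at 572 in CPA/6d tumors, as means of 2 pools, and at 93.3 and 359.5 in untreated tumors.

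Both lymphotoxin ligand genes rose, and the lymphotoxin β receptor gene was not called. Lta, whose soluble protein binds the TNF receptors, was at 31.0 and 52.5 in CPA/6d and 1.27 and 6.00 in untreated pools, a log2 fold change of 3.38 (SE 0.57, adjusted p = 0.000191 by limma). Ltb was at 148 and 206 in CPA/6d and 31.8 and 25.5 in untreated pools, a log2 fold change of 2.58 (SE 0.23, adjusted p = 6.94e-07 by limma). Ltbr, the lymphotoxin β receptor of stroma and myeloid cells, was at 649.9 and 709 in CPA/6d and 571 and 663 in untreated pools and was not called. The Ltb promoter (chr17:35194257-35194556, plus strand, GRCm38.p6, RefSeq) is shown because Ltb also rose in both hosts, with its NF-κB consensus match, which begins 87 bases before the start, in capitals.
Ltb: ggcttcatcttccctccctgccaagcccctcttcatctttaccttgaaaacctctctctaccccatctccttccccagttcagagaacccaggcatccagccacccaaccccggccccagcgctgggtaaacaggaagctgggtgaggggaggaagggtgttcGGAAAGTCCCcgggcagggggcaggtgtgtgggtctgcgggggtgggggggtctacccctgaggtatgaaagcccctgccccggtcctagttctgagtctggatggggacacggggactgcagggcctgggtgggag

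Of the RANK and TWEAK genes 4 of 5 rose in GL261(B6) tumors. Tnfsf11 (RANKL) was at 54.5 and 48.7 in CPA/6d and 2.54 and 10.5 in untreated pools, a log2 fold change of 3.04 (SE 0.51, adjusted p = 0.000181 by limma). Its receptor gene Tnfrsf11a (RANK), expressed by osteoclast precursors and macrophages, was at 380.3 and 411 in CPA/6d and 55.9 and 85.5 in untreated pools, a log2 fold change of 2.498 (SE 0.18, adjusted p = 1.34e-07 by limma). The decoy gene Tnfrsf11b (osteoprotegerin) was at 311 and 346 in CPA/6d and 133 and 109.5 in untreated pools, a log2 fold change of 1.43.

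Tnfsf12 (TWEAK) rose to 181 and 195 in CPA/6d pools, against 45.8 and 52.5 in untreated pools, and its receptor gene Tnfrsf12a (Fn14), the member with the highest level per kilobase in untreated GL261(B6) tumors, did not, at 455 and 407 in CPA/6d and 366 and 398 in untreated pools. Tnfsf12 and Tnfsf13 are neighbors on chromosome 11 and share 46.8% and 57.3% of their 50-base stretches with the read-through gene BC096441, so their counts are uncertain. Of the remaining receptors Tnfrsf26, an orphan receptor of the chromosome 7 cluster, was at 194.4 and 227 in CPA/6d and 25.4 and 40.5 in untreated pools, a log2 fold change of 2.67 (SE 0.23, adjusted p = 5.86e-07 by limma). Tnfrsf19 (TROY), a receptor of neural progenitors, was at 449 and 501 in CPA/6d and 324 and 366 in untreated pools and was not called.

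The members were set out as 21 ligand and receptor pairs, in which the TRAIL decoy genes Tnfrsf22 and Tnfrsf23 were not paired with Tnfsf10. Of these pairs, 4 had both genes called higher in GL261(B6) tumors: Tnfsf14 with Tnfrsf14, Lta with Tnfrsf1b, and Tnfsf11 with each of Tnfrsf11a and Tnfrsf11b. Tnfsf10 and Tnfrsf23, left out as a pair, were both called higher too. In 10 pairs the ligand gene alone was called, in 5 the receptor gene alone, and in 2 neither. These counts include pairs with a gene that had too few reads to be tested, so its missing call does not show an absent rise. Such genes were the receptor genes Tnfrsf8, Tnfrsf13b and Tnfrsf17 and the ligand genes Cd40lg and Cd70. Except for Cd70, both treated pools were above both untreated pools for these genes, at few reads. Pairs share members and are not independent of each other.

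**Figure D2:**
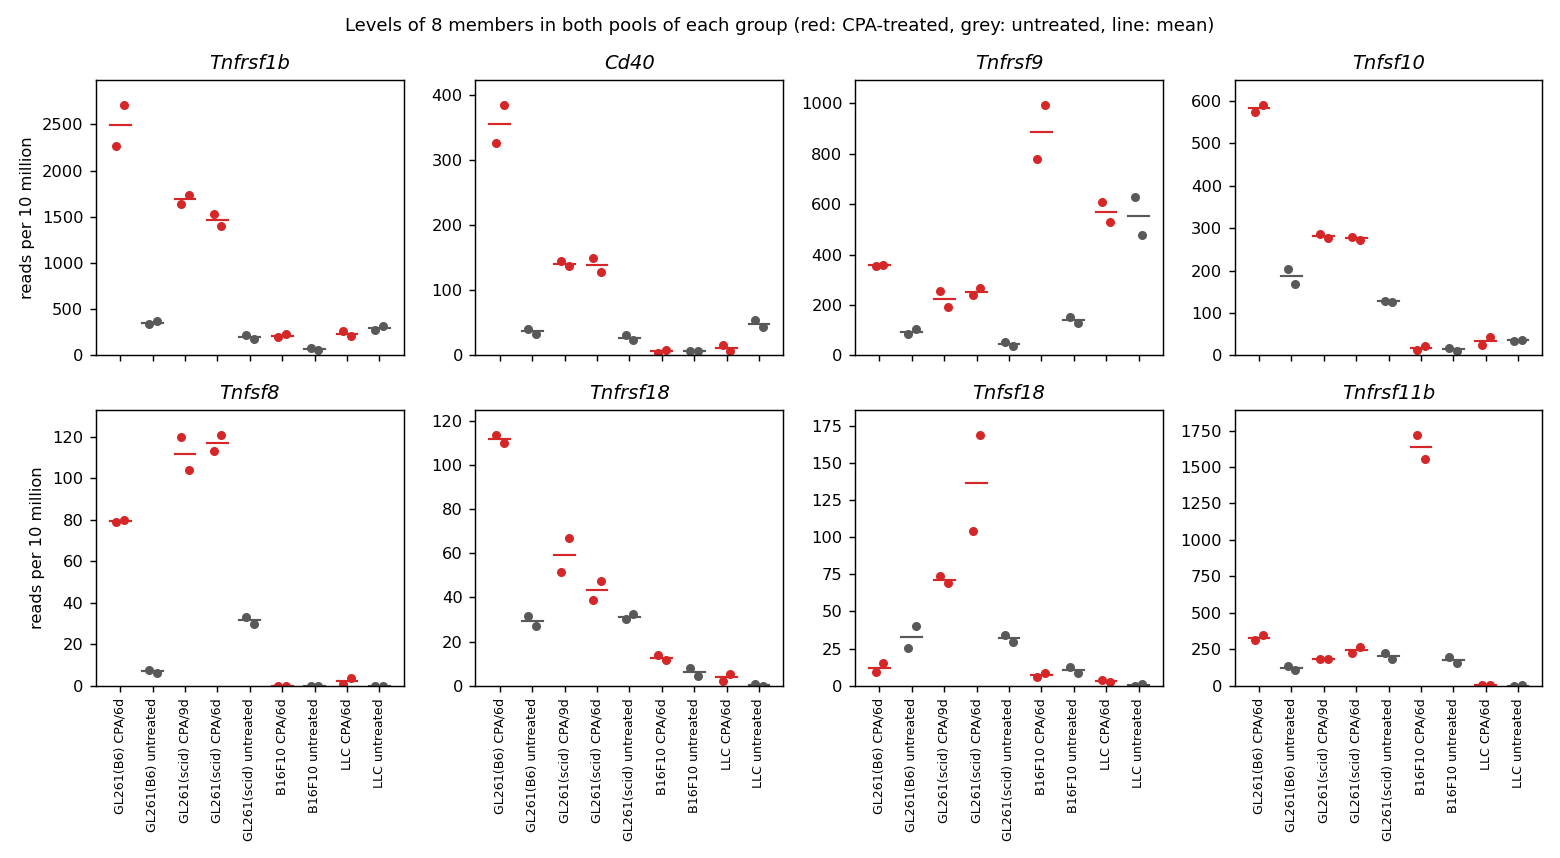
Levels of 8 members in normalized reads (vertical axes from 0, a scale for each gene) in both pools (points, with the mean as a line) of the 9 groups, CPA-treated in red and untreated in grey. Among the 6 groups in C57BL/6 mice, Tnfrsf1b, Cd40 and Tnfsf10 are highest in CPA/6d GL261(B6) tumors and Tnfrsf9 and Tnfrsf11b in CPA/6d B16F10 tumors, and among the 3 groups in scid mice, made with another kit, Tnfsf18 is highest in CPA/6d tumors.

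The scid hosts lack functional T and B cells. They also differ from the C57BL/6 hosts in strain and library kit, and these differences cannot be told apart. In GL261(scid) tumors CPA/6d raised 19 members and CPA/9d also 19, with none called lower, against backgrounds of 18.9% called higher and 8.14% lower for CPA/6d and of 20.4% and 10.7% for CPA/9d. Of the 33 members tested in each comparison, the called ones are 57.6%. Of the 19, 5 reached the read minimum in the treated but not in both untreated pools, namely Fasl, Tnfsf13, Tnfsf15 and Tnfsf4 with both schedules, Tnfsf11 with CPA/6d and Tnfrsf13b with CPA/9d. No member was lower at an unadjusted p under 0.05 with CPA/6d and 1 was with CPA/9d, both by limma, against 39.1% and 40.1% of all tested genes. The comparisons share the untreated pools. The median log2 fold change of the tested members was 1.64 for CPA/6d and 1.73 for CPA/9d, and -0.01 and -0.02 over all tested genes.

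Of the members called, 16 were called with CPA/6d in both hosts, which is 72.7% of the 22 in GL261(B6) and 84.2% of the 19 in GL261(scid). Cd40 was at 145 and 137 in CPA/9d, 150.2 and 128 in CPA/6d and 30.8 and 23.8 in untreated scid pools, with log2 fold changes of 2.34 and 2.31. Tnfrsf1b was at 1638 and 1737 in CPA/9d, 1527 and 1395 in CPA/6d and 225 and 182 in untreated pools, with log2 fold changes of 3.05 and 2.85. Tnfrsf11a had log2 fold changes of 2.91 with CPA/9d and 2.94 with CPA/6d, and Tnfrsf23 of 2.06 and 2.08. These receptors rose with both schedules, as they did in GL261(B6) tumors with CPA/6d.

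Tnfsf4 (OX40 ligand) had the largest fold change of any member in scid tumors, at 38.4 and 25.0 in CPA/9d, 28.9 and 33.6 in CPA/6d and 1.21 and 2.55 in untreated pools, a log2 fold change of 3.52 (SE 0.38, adjusted p = 1.52e-05 by limma) for CPA/6d, though untreated pools held only 2 and 3 reads. Its receptor gene Tnfrsf4 was not called with either schedule, at 14.02 and 20.3 in CPA/9d, 19.5 and 16.4 in CPA/6d and 15.1 and 11.05 in untreated pools. Fasl was at 23.6 and 17.9 in CPA/9d, 18.2 and 25.9 in CPA/6d and 3.02 and 3.40 in untreated pools, and was called with both, with 5 and 4 reads in untreated pools. Fasl thus rose in a host without functional T cells, where the natural killer markers summed to 315 to 327 in CPA/9d, 310.5 to 323 in CPA/6d and 22.9 to 49.6 in untreated pools. The macrophage markers summed to 17665 to 18912 in CPA/9d, 17246 to 18095 in CPA/6d and 2218 to 2379.6 in untreated pools, with all 5 called higher with both schedules. Of the 6 T cell markers Cd4 was called higher with both schedules and Cd8a with CPA/6d, at 9.43 and 8.63 in CPA/6d and 1.21 and 0 in untreated pools. Cd3g was at 23.9 and 24.2 in CPA/6d and 13.9 and 22.1 in untreated pools, without a call, and Cd3e had no read in CPA/6d pools. The fibroblast markers summed to 269370.0 to 310850.0 in CPA/9d, 235990.0 to 287440.0 in CPA/6d and 60821 to 71272 in untreated pools, with 4 of 5 called higher with both schedules. The 4 B cell markers summed to 35.4 to 65.5 in CPA/9d, 29.3 to 37.1 in CPA/6d and 1.70 to 3.02 in untreated pools. The part of these cells in the changes was not tested.

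Of the called genes in scid tumors, Tnfsf13b in the CPA/6d comparison, and Tnfsf18, Tnfsf13 and Tnfrsf13b in the CPA/9d comparison, lost the call when single libraries were left out. Cd40lg had no read in any of the 6 scid libraries. Tnfrsf17 held 7 reads with each schedule and none in untreated scid pools. That is 3.01-fold with CPA/9d and 2.4-fold with CPA/6d above a floor of 3 reads over the 2 untreated pools. These ratios leave out the counting error of the 7 reads and are not lower limits.

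The responses of the hosts to CPA/6d were compared by the interaction term, with 36 members tested. 3 members responded more in GL261(B6) and 1 less, against backgrounds of 1.17% and 1.08%. Strain and kit differ between the hosts, and whether either changes a response was not tested. The gene spans, introns included, of Cd27, Tnfrsf12a, Tnfrsf13b, Tnfrsf18, Tnfsf12, Tnfsf13 and Tnfsf9 overlap genes on the other strand. Where exons overlap, the scid libraries, made without strand, may mix their reads. The other libraries may do so too if their reads were counted without strand, a setting that is not known. Overlap of exons was not examined. Tnfsf18 differed most: CPA/6d scid pools held 104 and 169 and untreated scid pools 33.8 and 29.7, a log2 fold change of 2.03 (SE 0.22, adjusted p = 1.78e-05 by limma), and the response in B6 minus that in scid was a log2 difference of -3.39 (SE 0.45, adjusted p = 0.000686 by limma). Its direction was opposite in the hosts, called in scid and not in B6.

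The 3 members with the larger response in GL261(B6) were Tnfsf8, Tnfrsf18 and Tnfrsf11b. For Tnfrsf18, scid pools held 38.97 and 47.4 in CPA/6d and 30.2 and 32.3 in untreated tumors, and the responses differed by a log2 difference of 1.45 (SE 0.29, adjusted p = 0.00691 by limma). For Tnfrsf11b, scid pools held 226 and 267 in CPA/6d and 221 and 185 in untreated tumors, and the responses differed by a log2 difference of 1.15 (SE 0.19, adjusted p = 0.00247 by limma). For Tnfsf8, scid pools held 113 and 121 in CPA/6d and 33.2 and 29.7 in untreated tumors, called higher in both hosts, with a log2 difference of 1.51 (SE 0.31, adjusted p = 0.00747). With all 18 libraries in 1 fit, only the difference of Tnfsf18 was called. Tnfsf8 and Tnfrsf18 also lost the call when single libraries were left out.

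Cd27, Lta, Tnfrsf4 and Tnfsf14 were called in GL261(B6) and not in scid tumors, but their responses were not called different. Their differences were 2.16 (SE 0.61, adjusted p = 0.0347) for Cd27, 2.54 (SE 0.79, adjusted p = 0.0484) for Lta, 1.39 (SE 0.37, adjusted p = 0.026) for Tnfrsf4 and 2.23 (SE 0.62, adjusted p = 0.0318) for Tnfsf14, by limma. Cd27 was at 7.54 and 3.45 in CPA/6d and 7.25 and 3.40 in untreated scid pools, below the minimum for a test there. The T cell markers summed to 289 to 298 in CPA/6d and 42.9 to 50.1 in untreated scid pools. Most came from Cd4, at 246 and 238 in CPA/6d and 19.9 and 24.6 in untreated pools, a gene also expressed by other leukocytes. T cell markers were not the only ones to differ. Neutrophil markers summed to 41.4 to 127 in CPA/6d and 10.3 to 16.1 in untreated scid pools, against 1236 to 2003 and 12.0 to 12.7 in GL261(B6). Dendritic cell markers summed to 2050 to 2180 in CPA/6d and 554 to 562 in untreated scid pools, against 4299 to 4812 and 566 to 578 in GL261(B6). The part of these cells in the host differences was not tested.

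**Figure D3:**
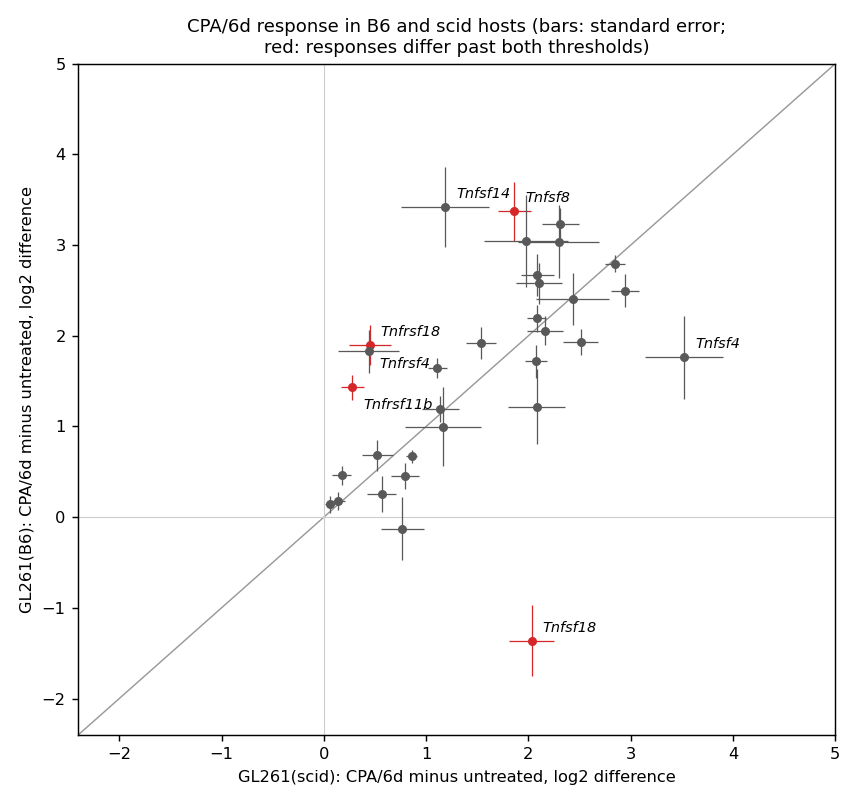
Log2 difference between CPA/6d and untreated tumors in GL261(B6) (vertical axis) against GL261(scid) (horizontal axis) for the 32 members tested in both, with standard errors as bars and the line of equal response in grey. The 4 red points, Tnfsf8, Tnfrsf18, Tnfrsf11b and Tnfsf18, are the members whose responses were called different, and Tnfsf18 lies farthest below the line, at -1.36 in GL261(B6) and 2.03 in GL261(scid).

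The schedules were compared directly in scid tumors, with 33 members tested. No member was called between CPA/9d and CPA/6d by limma, against 0.718% of all tested genes called higher and 0.0201% called lower. At an unadjusted p under 0.05, 2 members were higher and 5 lower with CPA/9d, against 10.7% and 11.6% of all tested genes. The lowest p was that of Tnfsf18, at 73.8 and 69.1 in CPA/9d and 104 and 169 in CPA/6d pools, a log2 fold change of -0.89 (SE 0.19, adjusted p = 0.0116 by limma), and of Tnfrsf12a, at 368 and 328 in CPA/9d and 459 and 449 in CPA/6d pools, a log2 fold change of -0.39 (SE 0.08, adjusted p = 0.0117 by limma). Both differences were under the fold of 2.

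The responses of B16F10 and LLC tumors were measured in the same host as GL261(B6). In B16F10 tumors all 16 tested members had a positive log2 fold change with CPA/6d. Their median was 0.94, against 0.03 over all tested genes. Of the 16, 5 (31.2%) were called higher and none was called lower, against backgrounds of 6.51% and 2.84%. By limma none was lower at an unadjusted p under 0.05 either, against 24.0% of all tested genes. All 5 were among the 22 called in GL261(B6). In B16F10 23 of the 39 members had too few reads to be tested. They include Cd27, Cd40, Ltb and Tnfsf13b, all called in GL261(B6), so the overlap covers only members tested in B16F10. Tnfrsf11b rose most, to 1720.0 and 1556 in CPA/6d pools, against 198 and 159 in untreated pools, a log2 fold change of 3.20 (SE 0.13, adjusted p = 5.66e-06 by limma). Tnfrsf9 was at 779.9 and 995 in CPA/6d and 151 and 129 in untreated B16F10 pools, a log2 fold change of 2.65 (SE 0.15, adjusted p = 1.69e-05 by limma). These were the highest levels of both genes among the 6 groups in C57BL/6 mice, whose libraries share a kit.

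The other 3 were Tnfrsf1b, at 196.7 and 229 in CPA/6d and 75.9 and 62.6 in untreated pools, Tnfrsf21, at 113 and 92.6 in CPA/6d and 38.0 and 34.8 in untreated pools, and Tnfsf12, at 78.9 and 79.8 in CPA/6d and 29.7 and 36.2 in untreated pools. Their log2 fold changes were 1.61 (SE 0.19, adjusted p = 0.000342), 1.47 (SE 0.24, adjusted p = 0.00156) and 1.25 (SE 0.25, adjusted p = 0.00469), by limma. Tnfsf12 lost the call without either CPA/6d pool or the deeper untreated pool, and Tnfrsf21 without the deeper CPA/6d pool. Cd40 was at 4.57 and 8.55 in CPA/6d and 6.15 and 6.95 in untreated B16F10 pools, too few reads for the test, and its ligand gene had no read. The macrophage markers summed to 2519 to 3083 in CPA/6d and 812 to 1042 in untreated pools there, with 4 of 5 called higher, and the T cell markers to 20.6 to 21.4 in CPA/6d and 11.1 to 24.6 in untreated pools.

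In LLC tumors Cd40 was the one member called, and it fell. It was at 15.9 and 7.64 in CPA/6d and 53.9 and 44.0 in untreated pools, a log2 fold change of -2.04 (SE 0.36, adjusted p = 0.00274 by limma). The background was 2.02% called higher and 0.946% lower, and 19 members were tested. No member was called higher by limma, and 2 were higher and 4 lower at an unadjusted p under 0.05, against 19.9% and 20.2% of all tested genes. Tnfsf14 came closest, at 14.4 and 15.3 in CPA/6d and 2.73 and 2.84 in untreated pools, a log2 fold change of 2.07 (SE 0.47, adjusted p = 0.00956 by limma). The median log2 fold change was -0.18 over the tested members and -0.01 over all tested genes. The macrophage markers summed to 2069 to 2092 in CPA/6d and 2877 to 3664 in untreated LLC pools, with 1 of 5 called lower. The 4 endothelial markers summed to 728 to 795 in CPA/6d and 1714 to 2052 in untreated LLC pools, with all 4 called lower at a median log2 fold change of -1.24, and 2 of 5 fibroblast markers and 1 of 4 neutrophil markers were called higher. The part of these shifts in the fall of Cd40 was not tested.

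The response in GL261(B6) was tested against that in LLC and in B16F10. Against LLC, 13 of 34 tested members responded more in GL261(B6) and none was called lower, where the backgrounds were 12.5% and 5.70%. By limma 1 member was lower at an unadjusted p under 0.05, against 31.4% of all tested genes. Cd40 differed most, rising in GL261(B6) and falling in LLC, by a log2 difference of 5.28 (SE 0.43, adjusted p = 3.19e-06 by limma). Tnfrsf1b followed, at 265 and 208 in CPA/6d and 272 and 319 in untreated LLC pools, with a difference of 3.12 (SE 0.18, adjusted p = 3.03e-07) by limma.

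Tnfrsf11a, Tnfrsf14, Tnfrsf26, Tnfrsf21, Tnfsf12, Tnfrsf23, Tnfrsf9, Tnfsf10 and Tnfsf13b also responded more than in LLC, with log2 differences of 1.61 to 2.69. In LLC these genes were detected in every pool, with the lowest level that of Tnfrsf14 in treated pools (33.4 and 22.9). Tnfsf10 and Tnfsf13b lost the call in a fit over all libraries of the kit, and Tnfsf10 also without single libraries. Tnfsf15 and Fasl were called as well, but LLC pools held at most 2 reads of either gene and both calls were lost under several alternatives, so no LLC response could be measured for them.

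Against B16F10, 3 of 35 tested members (8.57%) responded more in GL261(B6) and 1 (2.86%) less, shares close to the backgrounds of 6.03% and 4.68%. The differences were 3.29 (SE 0.47, adjusted p = 0.000708) for Cd40 and 1.19 (SE 0.20, adjusted p = 0.00161) for Tnfrsf1b, by limma. Tnfrsf11b responded less in GL261(B6), by a log2 difference of -1.77 (SE 0.20, adjusted p = 0.000211 by limma). Tnfsf8 was also called, but B16F10 libraries held no read of it in any pool, so the value only repeats the GL261(B6) response. The value of Cd40 likewise rests on GL261(B6), since B16F10 pools held 4 and 6 reads in CPA/6d and 6 and 5 reads in untreated tumors, too few to measure a response there. Tnfrsf1b lost the call without the deeper untreated or the shallower CPA/6d GL261(B6) pool, and Tnfrsf11b in a fit over all 12 libraries.

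The models also differed before treatment. Relative to untreated LLC, 8 of 24 tested members were higher and 7 lower in untreated GL261(B6) tumors, with backgrounds of 18.3% and 12.9%. Of the 8 higher, 6 (Ltb, Tnfrsf11b, Tnfrsf13c, Tnfrsf18, Tnfrsf19 and Tnfsf18) reached the read minimum in GL261(B6) but not in both LLC pools. The 15 calls became 7 without the deeper and 8 without the shallower GL261(B6) pool, where 9 of the 15 could still be tested. Relative to untreated B16F10, 11 of 25 were higher and none lower, with backgrounds of 20.4% and 15.6%, and 8 members were lower by limma at an unadjusted p under 0.05, against 38.6% of all tested genes. Of the 11, 8 (Cd40, Fasl, Ltb, Tnfrsf13c, Tnfrsf14, Tnfrsf4, Tnfsf10 and Tnfsf13b) reached the read minimum in GL261(B6) but not in both B16F10 pools, and 5 members were called without the deeper and 3 without the shallower GL261(B6) pool, where 4 of the 11 could still be tested. These differences are between single cell lines, and tumor cells and infiltrate cannot be told apart in them.

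Tnfrsf19 was at 324 and 366 in untreated GL261(B6) pools and 69.8 and 48.7 in B16F10 pools, a log2 fold change of 2.54 (SE 0.21, adjusted p = 2.49e-05 by limma). Untreated LLC pools held no read of it, and GL261(B6) was 249-fold above a floor of 3 reads over both LLC pools. Tnfrsf13c was at 82.6 and 76.5 in GL261(B6) and held 2 reads in LLC, a ratio of 86.7 (exact binomial interval 23.5 to 724). B16F10 held no read of Tnfrsf13c, and GL261(B6) was 45.1-fold above a floor of 3 reads there. Tnfrsf11b was at 133 and 109.5 in GL261(B6) against 1 read in LLC, a ratio of 266 (47.1 to 10600), but was not called against B16F10, at 198 and 159. The GITR pair, Tnfrsf18 and Tnfsf18, held 1 read each in untreated LLC, ratios of 64.3 (10.9 to 2600) and 70.2 (12 to 2830).

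Tnfsf10 was at 203 and 169.6 in untreated GL261(B6), 17.4 and 11.1 in B16F10 and 34.1 and 36.9 in LLC pools, called against both. Its receptors had the opposite order against LLC. Tnfrsf10b was at 114 and 116 in GL261(B6) and 436 and 396 in LLC pools, a log2 fold change of -1.84 (SE 0.11, adjusted p = 5.5e-06 by limma). The decoy genes Tnfrsf22 and Tnfrsf23 had log2 fold changes of -2.82 and -2.64 in the same comparison. Of the other members lower in GL261(B6) than in LLC, Tnfrsf9 was at 83.9 and 104 in GL261(B6) and 627 and 479 in LLC, Tnfrsf11a at 55.9 and 85.5 in GL261(B6) and 278 and 279 in LLC, Tnfsf12 at 45.8 and 52.5 in GL261(B6) and 131 and 135 in LLC, and Tnfrsf12a at 366 and 398 in GL261(B6) and 786 and 750.4 in LLC. The call of Tnfrsf12a, at a log2 fold change of -1.01, was lost with median-of-ratios scaling, at -0.975, with a larger pseudocount and without some libraries.

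Ltb was at 31.8 and 25.5 in GL261(B6), 4.10 and 1.39 in B16F10 and 4.77 and 1.42 in LLC pools, and was higher in GL261(B6) than in both. Tnfsf13b was called against both, though against LLC not without either GL261(B6) pool, at 90.3 and 94.5 in GL261(B6) and 40.2 and 44.0 in LLC pools, and with a single read in B16F10, a ratio of 156 (27.6 to 6220). Cd40, Tnfrsf1b, Tnfrsf14, Tnfrsf21, Tnfrsf4 and Fasl were higher than in B16F10 and not called against LLC, where Fasl was not tested. Of these, Tnfrsf21 lost the call without the shallower GL261(B6) pool and Tnfrsf4 without the filter. Fasl held 1 read in untreated B16F10, a ratio of 24.5 (3.94 to 1010). The T cell markers summed to 287 to 315 in untreated GL261(B6), 11.1 to 24.6 in B16F10 and 4.77 to 11.3 in LLC pools, and the macrophage markers to 2921 to 3219 in GL261(B6), 812 to 1042 in B16F10 and 2877 to 3664 in LLC pools.

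**Figure D4:**
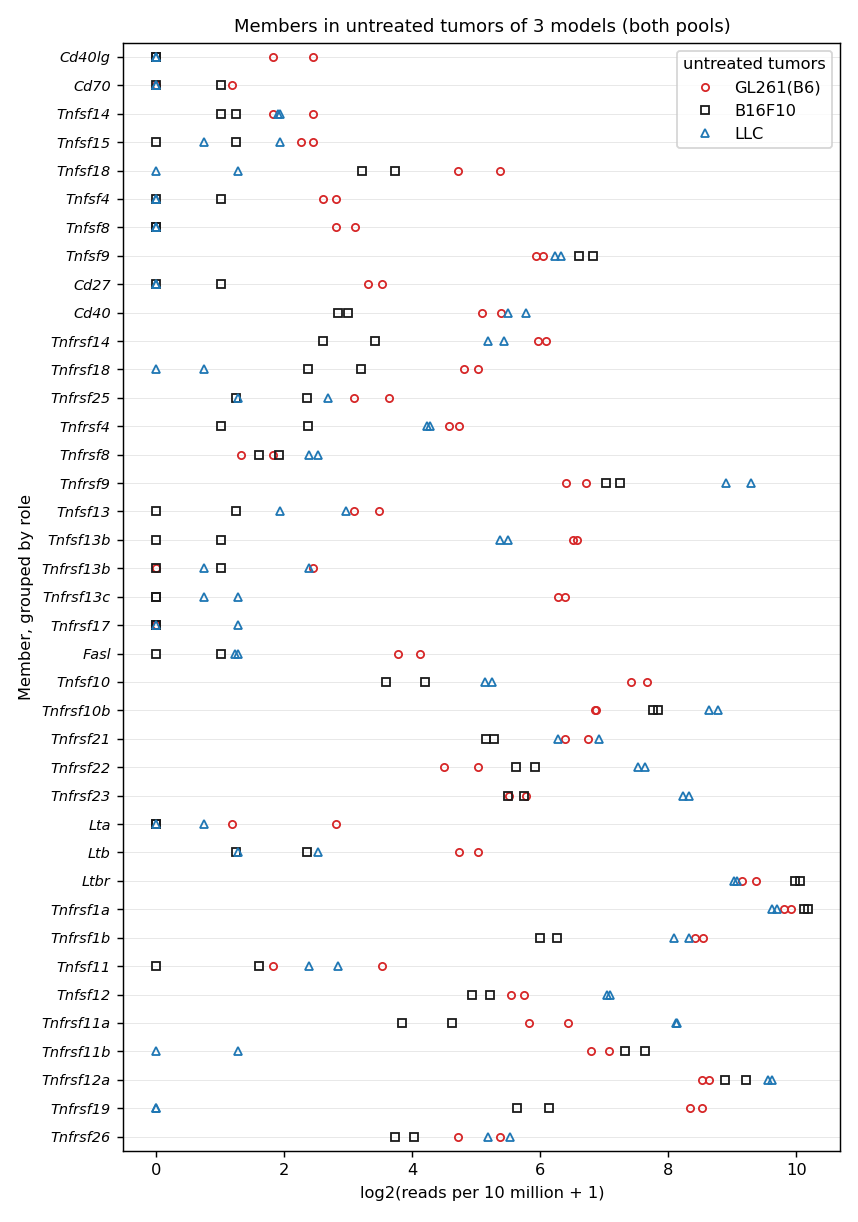
Level of each of 39 members (rows, by role) in both pools of untreated GL261(B6) (red circles), B16F10 (black squares) and LLC (blue triangles) tumors, as log2 of normalized reads plus 1. Tnfrsf19, Tnfrsf13c and Tnfrsf11b are near 0 in LLC, and Tnfrsf9, Tnfrsf10b, Tnfrsf22 and Tnfrsf23 are highest there.

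Per kilobase of exon, 3 receptor genes led the family in untreated tumors of each model, Tnfrsf12a, Tnfrsf1a and Ltbr. Their means over 2 pools were 397, 359.5 and 262 normalized reads per kilobase in GL261(B6), 551, 437.5 and 439 in B16F10, and 798, 311 and 224 in LLC. None of these 3 was called in any response to CPA. Several members are neighbors in the genome, 9 on chromosome 4 and 7 on chromosome 17. On chromosome 1 Tnfsf4, Tnfsf18 and Fasl lie within the interval from 163325581 to 163718626 (mm9), and of these neighbors Fasl alone was called in both hosts with CPA/6d.

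Genes outside the rule were read from lists of relatives and signaling partners. Of 7 other relatives 5 were tested in GL261(B6) tumors, and 4 rose: Tnf, the founding cytokine, at 116 and 156 in CPA/6d and 6.36 and 12.0 in untreated pools, Fas, the receptor of FasL, at 162 and 181 in CPA/6d and 24.2 and 22.5 in untreated pools, Eda2r and Ngfr. Their log2 fold changes were 3.80, 2.83, 2.88 and 2.28. In scid tumors the same 4 and Eda were called higher with both schedules, and in B16F10 and LLC none was called.

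Of 13 TRAFs and adaptors 4 rose (30.8%, against 17.6% of all tested genes) and 1 fell in GL261(B6) tumors. Edaradd, the EDAR adaptor, Traf1 and Traf5 had log2 fold changes of 3.33, 2.46 and 2.12. Traf4, a TRAF with roles in development, fell to 469.5 and 472 in CPA/6d pools, against 1464 and 1328 in untreated pools, and was also called lower in scid tumors. Of 11 genes of death signaling 5 rose (45.5%), led by Birc3, an inhibitor of apoptosis, at 629 and 636 in CPA/6d and 184 and 111 in untreated pools, Ripk3, the necroptosis kinase, and Casp8, with log2 fold changes of 2.14, 1.90 and 1.47. Of 15 NF-κB factors and regulators 8 rose (53.3%), among them the inhibitor gene Nfkbia (1.46), Nfkbie (1.35), Relb (1.22) and Rel (1.184). In scid CPA/6d tumors 2 TRAF genes (15.4%), 2 death genes (18.2%) and 6 NF-κB genes (40%) were called higher, where 18.9% of all tested genes were, so that the TRAF and death lists were near the background. In B16F10 1 NF-κB gene, Bcl3, was called higher and in LLC none, where Ripk3 was called lower. The medians of these lists in GL261(B6) tumors were 0.56 for the TRAFs, 0.63 for death signaling and 1.014 for NF-κB, against -0.02 over all tested genes.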

How the data were processed

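Poly-A RNA of 18 pools in 9 groups was sequenced. Per the labels and methods, the authors used TopHat2 2.0.13, mm9, RefSeq gene counts and DESeq. The 10 deposited tables give for each gene the signal of 2 groups, as the authors' mean of normalized reads, which is the only column used. Columns of ratios, fold changes and p-values of the authors were not used. Each mean is a sum of whole reads divided by 2 constants, so the reads of both pools were recovered exactly, with 1 solution for 100% of genes. This split and the fits were checked on simulated data. The pools of a group are told apart only by their depth, not by their number, and the deposited tables of LLC and B16F10 head their columns with another dose than the labels, whose dose is used.

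Reads were scaled by TMM over all 18 libraries, trimming 30% of ratios and 5% of levels at each end, and tested by limma 3.58.1 (R 4.3.3) with a trended prior on log2 of reads per 10000000 plus 1, in fits of 4 libraries, or 8 for differences between responses. Genes needed 10 reads at the median depth in 2 libraries and 15 in all. Fold changes are on that log2 scale and understate those of low genes. Members and lists were chosen with earlier results of these data known. The text gives in full, per comparison, at most 12 called members by size of change with their partners, and at most 4 genes of each other list. Alternatives were other scalings, no filter, a pseudocount of 10, calls at adjusted p under 0.05, 1 fit per kit and leaving out each library. Positions are of mm9 (gencode vM1), and all 39 symbols matched.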

Additional observations from a re-analysis of the deposited data

Results flagged for a closer look

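The response to CPA/6d differed between models for 21 entries, each the log2 response in GL261(B6) minus that in the other model, past a fold of 2 and an unadjusted p of 0.001 by limma. Against LLC the values were 5.28 for Cd40, 3.79 for Tnfsf15, 3.12 for Tnfrsf1b, 2.69 for Tnfrsf11a, 2.67 for Fasl, 2.53 for Tnfrsf14, 2.49 for Tnfrsf26, 2.38 for Tnfrsf21, 2.13 for Tnfsf12, 1.97 for Tnfrsf23, 1.88 for Tnfrsf9, 1.71 for Tnfsf10 and 1.61 for Tnfsf13b. Against B16F10 they were 3.37 for Tnfsf8, 3.29 for Cd40, 1.19 for Tnfrsf1b and -1.77 for Tnfrsf11b. Against GL261(scid) they were 1.51 for Tnfsf8, 1.45 for Tnfrsf18, 1.15 for Tnfrsf11b and -3.39 for Tnfsf18. The values of Tnfsf15 and Fasl against LLC and of Tnfsf8 against B16F10 rest on at most 2 reads a library in the other model, and that of Cd40 against B16F10 on 4 to 6 reads a library there.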

How the results depend on the processing

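No paired analysis was possible because the deposited tables hold group means, and the reads recovered from them carry no pool numbers. Of 122 counts of called members under alternatives over 11 comparisons, 98 stayed within 1.5 times. Without the filter, with calls at adjusted p under 0.05 or with 1 fit per kit, 2 members in place of 1 were called in LLC. Calls at adjusted p under 0.05 gave 8 members in place of 5 in B16F10, 10 in place of 4 for the response of GL261(B6) against B16F10 and 8 in place of 4 against GL261(scid). The pseudocount of 10 gave 20 members in place of 13 for the response against LLC, 15 against B16F10 and 7 against GL261(scid), and 1 fit over both kits gave 1 against GL261(scid). With 1 fit per kit, 15 of 22 members were called in GL261(B6).

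Leaving out single libraries gave 16 to 23 members in GL261(B6), 1 to 2 in LLC, 3 to 6 in B16F10, 14 to 21 and 13 to 22 in GL261(scid) with CPA/6d and CPA/9d, 0 to 1 between the schedules, 7 to 16 and 3 to 14 in untreated GL261(B6) against LLC and B16F10, and 10 to 13, 2 to 4 and 2 to 5 for the responses against LLC, B16F10 and GL261(scid). The lone pool is then assumed to vary like the other groups. Against LLC the count was 7 without the deeper and 8 without the shallower untreated GL261(B6) pool, and against B16F10 it was 5 and 3, where only 9 of 15 and 4 of 11 called members still reached the read minimum in 2 libraries. B16F10 fell to 3 called members without its deeper CPA/6d pool, LLC had 2 without its shallower untreated pool, and the schedules differed in 1 without the deeper CPA/6d pool. The response against B16F10 gave 2 without the deeper untreated or the shallower CPA/6d GL261(B6) pool, and that against GL261(scid) gave 2 without either CPA/6d GL261(B6) pool, the deeper CPA/6d scid pool or either untreated scid pool.

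Of 1155 values of called members under alternatives, 1079 kept direction and call, 76 kept direction and lost the call, and none reversed. A further 59 could not be given, because the member then had too few reads to be tested, as for the 6 members lost in GL261(B6) without either CPA/6d pool. Among these losses Tnfsf13b lacked the call in scid CPA/6d tumors, at 1.09 without the shallower treated and 0.93 without the shallower untreated pool, and with CPA/9d Tnfsf18 lost it without the deeper treated pool (1.099), and Tnfsf13 (1.96) and Tnfrsf13b (1.62) without the shallower one. Tnfsf12 in B16F10 lost it without the deeper untreated (1.11), the deeper treated (1.26) or the shallower treated pool (1.24), and Tnfrsf21 without the deeper treated pool (1.33). Tnfrsf12a between untreated GL261(B6) and LLC lost it without the deeper GL261(B6) (-0.95) or the deeper LLC pool (-0.974). Depth limits Cd40lg, Cd70, Tnfrsf17 and Tnfrsf8, each at under 20 reads a library in every group and tested in no response of a single model.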

Other observations

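Tnfrsf13c (BAFF receptor), best known from B cells, was at 82.6 and 76.5 normalized reads per 10000000 in untreated GL261(B6) and 73.1 and 60.3 in untreated GL261(scid) pools, a host that lacks functional B cells. The source of this transcript was not tested. Tnfrsf19 likewise was at 324 and 366 in untreated GL261(B6) and 558 and 572 in untreated GL261(scid) pools, and neither gene was called in any response to CPA. Levels of the hosts were not tested against each other, since host, strain and kit cannot be told apart in them.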
